A study of Mus musculus with 9 samples.

Results

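The type I interferon antiviral effector genes are 42 genes that cells switch on when interferon alpha or beta signals that a virus may be near. They were looked up by symbol in the platform annotation of a mouse Illumina bead array. The annotation held 40 of them with 80 probes, of 19057 genes and 45281 probes in all, and no array values are given for Herc6 and Ifi44, which enter only the promoter counts. A filter on dim probes kept 68 probes of 37 genes. The only probes of Trim30a, Mx1 and Isg20 did not pass it and were not tested.

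The cells were RAW264.7, a mouse macrophage line, grown in alpha-MEM with fetal bovine serum. The first group stably expressed a short hairpin RNA against the transcript of NFAT5 (knock-down, 3 arrays). NFAT5 is a transcription factor of the Rel family, best known for the response of cells to high salt. The second group was transfected with oligonucleotides that carry the NFAT5 consensus binding sequence and are meant to draw the protein away from its target genes (decoy, 3 arrays). The third group received no treatment (control, 3 arrays). In the labels these entries stand under a heading that names IL1b, which no entry mentions. The labels do not say whether the modified cells were a clone or a pool, nor whether a group's 3 samples were cultured apart. Every p-value therefore reflects only how these samples spread, and that spread may be technical. No array analysed here came from cells with an unrelated hairpin or oligonucleotide. In RNA from whole cultures, a change in the number of cells that express a gene and a change in its RNA per cell cannot be told apart.

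Type I interferon binds a receptor on the cell surface, whose kinases pass the signal to the nucleus. There the factor ISGF3, which holds IRF9, binds the interferon-stimulated response element (ISRE) in front of the effector genes. The effectors then sense viral RNA, halt translation, degrade RNA, or block entry, replication and release of the virus. Macrophages are among the cells that keep a low level of this program even without infection.

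In both modified groups a set of these effectors rose. The deconjugase gene Usp18, the radical enzyme gene Rsad2, the kinase gene Eif2ak2, the neighbours Parp14 and Dtx3l, the sensor gene Dhx58 and the RNA-binding gene Ifit3 each had a probe that rose under every way of scaling the arrays that was tried, in knock-down as in decoy cells. Others, among them Samd9l, Ifi35 and Pml, rose after quantile normalization although their raw signal overlapped that of control or lay below it, and Ifi27l2a fell in both lines.

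The promoters of a few of these genes are shown because ISGF3 acts there. Sequences are RefSeq's for GRCm38.p6, from 250 bases before the annotated start to 50 after it, and the capitals mark matches on either strand to the ISRE core, which is GAAA, any 2 bases and GAAA. They lie at chr4:156200769-156201068 on the minus strand (Isg15), chr12:26456403-26456702 on the minus strand (Rsad2), chr17:78882523-78882822 on the minus strand (Eif2ak2), chr19:34583279-34583578 on the plus strand (Ifit3) and chr16:35938978-35939277 on the minus strand (Dtx3l).
Isg15: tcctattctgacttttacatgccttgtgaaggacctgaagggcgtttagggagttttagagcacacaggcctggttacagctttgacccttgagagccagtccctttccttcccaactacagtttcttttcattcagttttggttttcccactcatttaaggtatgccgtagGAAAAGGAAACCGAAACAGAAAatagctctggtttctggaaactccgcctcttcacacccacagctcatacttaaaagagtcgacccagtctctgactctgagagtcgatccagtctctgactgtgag
Rsad2: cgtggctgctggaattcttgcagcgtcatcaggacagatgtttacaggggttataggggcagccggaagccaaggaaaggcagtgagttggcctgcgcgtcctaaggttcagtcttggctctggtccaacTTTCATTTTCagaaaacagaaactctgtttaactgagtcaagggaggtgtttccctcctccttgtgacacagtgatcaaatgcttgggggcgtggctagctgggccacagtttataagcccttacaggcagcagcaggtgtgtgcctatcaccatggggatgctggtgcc
Eif2ak2: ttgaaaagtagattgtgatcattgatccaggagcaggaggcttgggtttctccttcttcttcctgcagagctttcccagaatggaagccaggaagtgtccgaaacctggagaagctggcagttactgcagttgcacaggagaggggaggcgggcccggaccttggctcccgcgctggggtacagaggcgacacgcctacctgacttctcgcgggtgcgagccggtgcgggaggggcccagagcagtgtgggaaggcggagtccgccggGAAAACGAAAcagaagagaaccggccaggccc
Ifit3: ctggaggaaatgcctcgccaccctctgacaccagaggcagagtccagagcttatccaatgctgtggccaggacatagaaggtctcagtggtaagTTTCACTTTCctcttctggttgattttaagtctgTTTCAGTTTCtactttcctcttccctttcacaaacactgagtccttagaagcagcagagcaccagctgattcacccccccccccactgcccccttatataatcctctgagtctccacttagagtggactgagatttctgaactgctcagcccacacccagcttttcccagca
Dtx3l: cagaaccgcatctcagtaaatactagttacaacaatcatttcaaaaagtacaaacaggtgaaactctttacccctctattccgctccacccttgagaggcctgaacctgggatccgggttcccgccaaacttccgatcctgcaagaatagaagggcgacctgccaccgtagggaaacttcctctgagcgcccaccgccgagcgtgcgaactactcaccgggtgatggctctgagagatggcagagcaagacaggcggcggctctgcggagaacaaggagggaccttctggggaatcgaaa

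In the Isg15 promoter 3 overlapping matches formed 1 run that ended 56 bases before the start. The match of Rsad2 ended 110 bases before the start, and those of Ifit3 ended 146 and 112 bases before it. The match of Eif2ak2 lay past the annotated start, and the window of Dtx3l held none. Promoters were found for 32 of the 42 members, and 14 of these genes had at least 1 match, against 3.99% of the 27025 genes (3.44% of 32851 promoters). Of the 15 members with a promoter whose brightest probe rose in both comparisons, as 13.2% of all probes tested did, and had signal above background on at least 3 arrays, 9 had a match (Ddx58, Eif2ak2, Ifit3, Ifitm3, Isg15, Oas1g, Oas3, Rsad2 and Trim21). Of 10 other measured members 2 had one, Bst2 and Oas1a. These groups rest on calls after quantile normalization, many of which changed with the scaling, as described further on. Among the 9, only Eif2ak2, Ifit3 and Rsad2 rose under every scaling tried in both comparisons, as did Dtx3l, which had no match. No direction is drawn below for Ifitm3, and Oasl2, also among the 15, was above background on no control array. A link between the motif and the rise was not tested. The core shared by NFAT sites, TGGAAA, was present in 13 of 32 members and 23.9% of all genes, in 4 of the 15 and in 5 of the 10. The gamma-activated site TTCNNNGAA was present in 8 of 32 members and 9.55% of all genes, in 3 of the 15 and in 4 of the 10. TGGAAA and TTCNNNGAA were sought on both strands as well, and a match may overlap one of another motif. A match is a run of letters, and a window without one says nothing about the factor.

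The control arrays stood apart from the modified groups before any gene was compared. The upper quartile of the raw signal spanned 209 to 257 units for knock-down arrays and 214 to 237 for decoy arrays, against 319 to 336 for control arrays. The background limit, set on each array at 3 SD (of the lower side) above the commonest log2 signal, was 230.1 to 254.2 units in knock-down cells and 214.5 to 229.3 in decoy cells, against 192.7 to 200.3 in control. Neither measure overlapped between the modified groups and control, and the arrays were brought to 1 distribution by quantile normalization. Whether the hairpin, the oligonucleotides, transfection or selection lies behind a difference from control cannot be told apart. The median SD within a group, in log2, was 0.223 in knock-down cells, 0.186 in decoy cells and 0.0906 in control. Nfat5 itself, on its brightest probe, read 1428, 1051 and 734 units in knock-down cells and 2083, 1731 and 1430 in decoy cells, against 5049, 4591 and 4857 in control. After normalization it was 2.04-fold lower in knock-down cells and 1.40-fold lower in decoy cells (limma adjusted p = 2.49e-05 and 0.0112, and 0.0683 for the decoy without control replicate 1). Knock-down was 1.46-fold lower than decoy (adjusted p = 0.0418), a call lost without any 1 array other than knock-down replicate 1 (adjusted p = 0.0595 to 0.144). The next-brightest probe read 596, 489 and 390 units in knock-down cells and 640, 569 and 509 in decoy cells, against 752, 685 and 625 in control. It was called 1.56-fold and 1.65-fold higher only after normalization.

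Macrophage markers were present, with 7 of the 10 listed genes on the array above background on at least 3 arrays. Their summed signal was 61327 to 114918 units in knock-down cells and 88204 to 100904 in decoy cells, against 125085 to 129498 in control. Their brightest probe, of Lyz2, went the other way and was called higher in both. It read 66220, 64465 and 45264 units in knock-down cells and 61318, 62771 and 56663 in decoy cells, against 47287, 51239 and 47552 in control. It exceeded 60000 units, taken here as saturated, on 4 arrays, so no fold is given. Of 15 macrophage probes tested, 1 was called higher and 7 lower in knock-down cells, and 2 and 5 in decoy cells. The shares are 6.67% and 46.7% in knock-down cells, against 22.6% and 23.9% of all probes tested. In decoy cells they are 13.3% and 33.3%, against 16.1% and 18.2%. Of the epithelial markers Krt8 alone, 1 of 4, was above background. Of the T cell, B cell and fibroblast markers, 5, 2 and 5 genes on the array, none was. The summed signal of the neutrophil markers was 819 to 1055 units in knock-down cells and 845 to 926 in decoy cells, against 645 to 745 in control, with S100a8 the 1 of 4 genes above background. The markers of plasmacytoid dendritic cells, which make much interferon, summed to 2433 to 3769 units in knock-down cells and 2631 to 3745 in decoy cells, against 6336 to 6942 in control, with Tcf4 and Siglech above background. Siglech was so on control arrays only. The brightest Tcf4 probe read 2813, 1701 and 1487 units in knock-down cells and 2864, 2659 and 1780 in decoy cells, against 5830, 5321 and 5287 in control. After normalization it was not called in either comparison (limma adjusted p = 0.0829 and 0.279). The part of these cell types in the results below was not tested.

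Across all 68 probes of the effectors, 32 were higher and 6 lower in knock-down cells than in control at an adjusted p below 0.05, which is what "called" means here. Of all 27062 probes tested, 22.6% were called higher and 23.9% lower. The median log2 difference of the effector probes was 0.25, against 0.012 for all probes tested. In the decoy 32 were higher and 4 lower than in control, where 16.1% and 18.2% of all probes were, with medians of 0.28 and 0.011. The count of lower probes was 2 without control replicate 1 or control replicate 3. The comparisons share their control arrays. Both counts of 32 include 1 probe each of Adar, Oasl1 and Oasl2 that was above background on no control array and supports nothing here.

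Probes above background on at least 3 arrays give the clearer picture, and 47 probes of 32 effector genes were. Of these, 28 were higher and 4 lower in knock-down cells, against 28.4% and 33.4% of the 14883 probes on the array with such signal. In the decoy 29 were higher and 2 lower, against 21.2% and 26.2%. The raw signal, which no scaling has touched, was higher on every knock-down array than on every control array for 19 of the 47, where 3.43% of all such probes were. In the decoy it was higher for 20 of the 47, against 4.09%. It was lower without overlap for 16 and 18 of them, against 73.5% and 81.8%. Over all 27062 probes tested, dim ones included, the raw signal was higher without overlap for 22.7% in knock-down cells and 14.9% in decoy cells. The share thus varies with brightness, for which the 47 were not matched. Raw signal also holds each array's background. The median raw signal was 172 to 187 units on knock-down and 156 to 167 on decoy arrays, against 150 to 158 on control. A small gap on a dim probe may lie within that difference. The counts of higher probes in this paragraph, called or by raw signal, include 1 probe each of Adar, Oasl1 and Oasl2. Those 3 were above background on no control array and entered the 47 only through the modified groups, so they support nothing here.

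**Figure D1:**
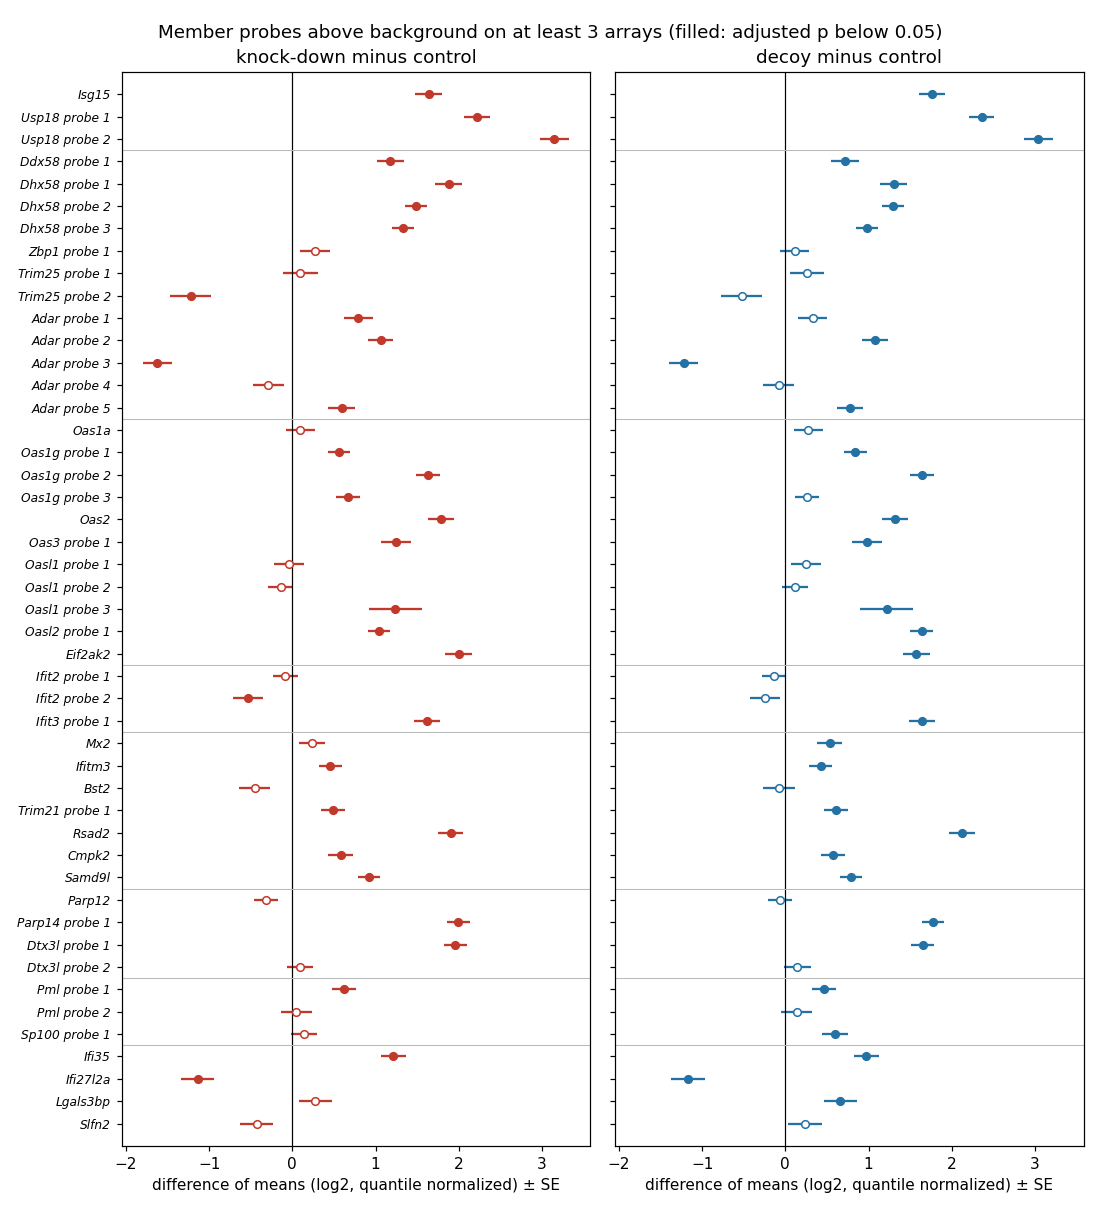
Log2 difference from control (x axis, ± SE of the limma fit, 3 arrays a group) of each effector probe above background on at least 3 arrays (rows, grouped by role with grey lines between roles), for the knock-down (left) and the decoy (right). Filled points have an adjusted p below 0.05. Both probes of Usp18 lie farthest to the right, and probe 3 of Adar and Ifi27l2a lie left of 0 in both panels.

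The ISG15 system attaches and removes a ubiquitin-like protein, and all 3 of its tested probes rose in each modified group. Among all probes 22.6% rose in knock-down cells and 16.1% in decoy cells. Isg15, the modifier itself, read 833, 439 and 389 units on the knock-down arrays and 670, 647 and 563 on the decoy arrays, against 381, 303 and 324 on the control arrays. Neither modified group overlapped control, although the dimmest knock-down array lay just above the brightest control array. The higher background of the knock-down arrays may add to that gap. After normalization Isg15 was 3.11-fold higher in knock-down cells and 3.40-fold higher in decoy cells (log2 difference 1.64 and 1.77, SE 0.159, adjusted p = 1.72e-06 and 2.12e-06). Usp18, which strips ISG15 from proteins and also damps the interferon receptor, has a pair of probes, numbered here and below by falling brightness. Probe 1 read 4140, 2589 and 2636 units in knock-down cells and 4016, 4409 and 3162 in decoy cells, against 1619, 1474 and 1754 in control. It was 4.66-fold and 5.13-fold higher (adjusted p = 7.15e-08 and 1.13e-07). Probe 2 read 1473, 1353 and 997 units in knock-down cells and 1326, 1324 and 1427 in decoy cells, against 329, 320 and 268 in control. Every array of both modified groups had at least 3 times the signal of any control array by these readings. Its differences of 3.15 and 3.04 in log2 (8.89-fold and 8.24-fold, SE 0.177, adjusted p = 1.59e-08 and 6.49e-08) were the largest of any effector probe.

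**Figure D2:**
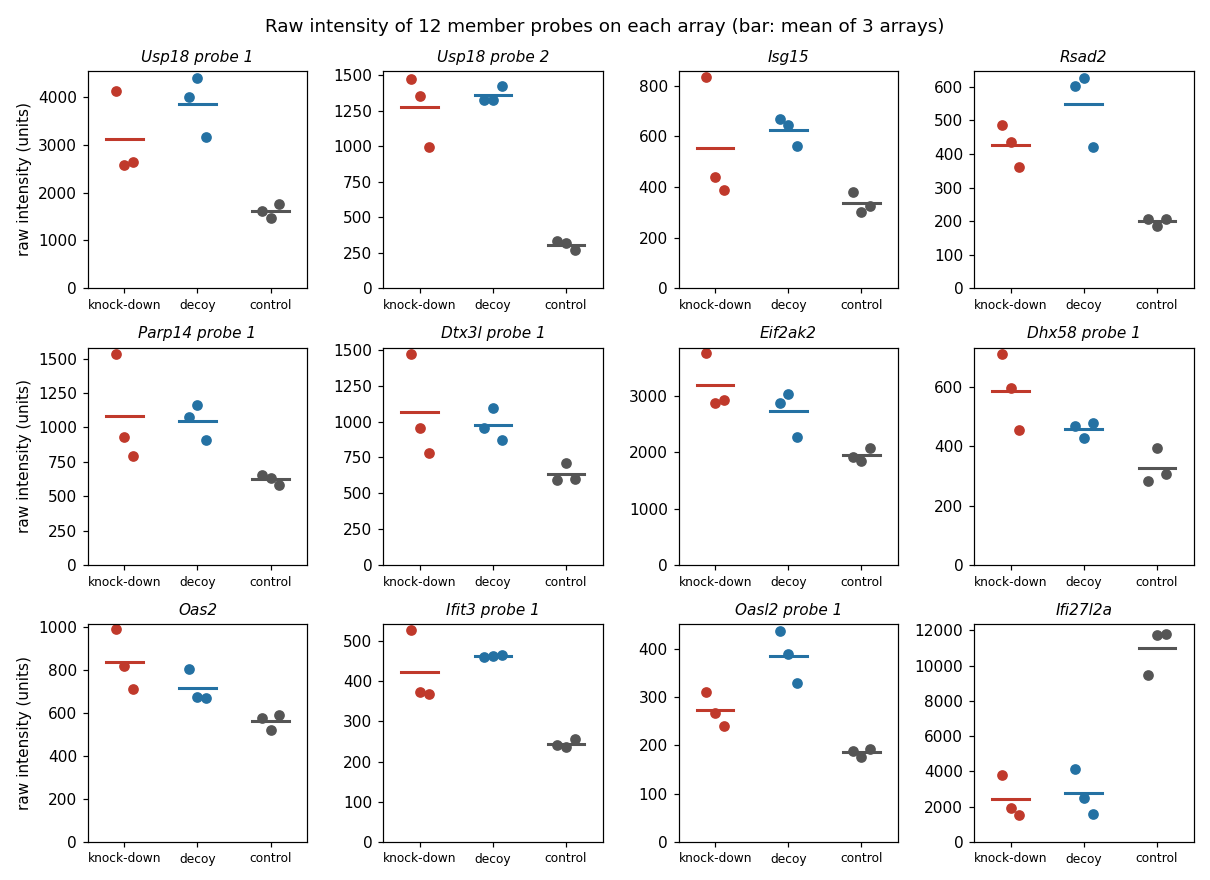
Raw intensity in array units (y axis, linear from 0) of 12 effector probes on each of the 3 knock-down, 3 decoy and 3 control arrays (points), with the mean of each group as a bar. In all panels but that of Ifi27l2a the control points lie below those of both modified groups, and for Ifi27l2a the control arrays, at 9474 to 11820 units, lie above them.

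Sensors of viral nucleic acid and their regulators had 16 tested probes, of which 8 rose and 2 fell in knock-down cells, and 8 rose and 1 fell in decoy cells. Among all probes 22.6% rose and 23.9% fell in knock-down cells, and 16.1% rose and 18.2% fell in decoy cells. Both counts of 8 include probe 5 of Adar, which was above background on no control array and supports nothing here. Dhx58 encodes LGP2, a helicase that tunes the RNA sensors RIG-I and MDA5, and 3 of its 4 probes were above background. Probe 1 read 712, 597 and 454 units in knock-down cells and 469, 428 and 480 in decoy cells, against 283, 396 and 306 in control. It rose by 1.88 in log2 in knock-down cells and by 1.30 in decoy cells (adjusted p = 6.13e-07 and 3.7e-05). Probe 2 read 531, 408 and 333 units in knock-down cells and 432, 415 and 379 in decoy cells, against 249, 280 and 297 in control, and rose by 1.49 and 1.30 (SE 0.131). Probe 3 read 402, 328 and 280 units in knock-down cells and 329, 288 and 265 in decoy cells, against 207, 227 and 209 in control, and rose by 1.33 and 0.98. All 3 probes gave the same direction with no overlap in raw signal. Ddx58, the gene of RIG-I itself, read 340, 337 and 276 units in knock-down cells and 234, 307 and 249 in decoy cells, against 229, 221 and 231 in control. It was 2.26-fold higher in knock-down cells and 1.64-fold higher in decoy cells (adjusted p = 4.8e-05 and 0.00391), and 1 decoy array lay within 3 units of the brightest control array. The probe of Ifih1, which encodes MDA5, was not above background on any array and was not called.

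Trim25, a ubiquitin ligase that acts on RIG-I, did not follow. Its bright probe read 4368, 1493 and 2106 units in knock-down cells and 3523, 3499 and 2393 in decoy cells, against 5353, 5179 and 4930 in control, with log2 differences of 0.10 and 0.26 that were not called (adjusted p = 0.717 and 0.34). Without knock-down replicate 2 the first was called (0.405, adjusted p = 0.0332). Its dim probe read 223, 191 and 155 units in knock-down cells, where no array was above background, and 282, 253 and 167 in decoy cells, against 465, 449 and 522 in control. It fell at least 1.25-fold in knock-down cells (adjusted p = 0.000964) and was not called in decoy cells (adjusted p = 0.11). Zbp1, a sensor of left-handed nucleic acid, had 1 of its 3 probes above background, at 293, 271 and 248 units in knock-down cells and 316, 218 and 249 in decoy cells, against 329, 398 and 360 in control. Its normalized level was not called (adjusted p = 0.218 and 0.65), but it was called lower with arrays scaled to a common median (-0.60 and -0.56 in log2, adjusted p = 0.0202 and 0.0292).

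Adar, which edits adenosine to inosine in double-stranded RNA and so hides self RNA from the sensors, had 5 probes with signal, and they disagreed. Probe 1 read 736, 785 and 448 units in knock-down cells and 564, 543 and 519 in decoy cells, against 880, 983 and 754 in control. Probe 2 read 760, 469 and 349 units in knock-down cells and 536, 579 and 542 in decoy cells, against 520, 461 and 525 in control. After normalization probe 1 rose by 0.79 in log2 in knock-down cells (adjusted p = 0.00171) and was not called in decoy cells (0.33, adjusted p = 0.153). Probe 2 rose by 1.06 and 1.08. Probe 3 stood against them at 405, 276 and 213 units in knock-down cells and 379, 323 and 344 in decoy cells, against 1477, 1579 and 1537 in control. It was 3.08-fold lower in knock-down cells and 2.34-fold lower in decoy cells (limma adjusted p = 4.94e-06 and 0.000121), the largest fall among the effector probes, with no overlap in raw signal. Probe 4 read 521, 314 and 257 units in knock-down cells and 496, 481 and 293 in decoy cells, against 878, 792 and 801 in control, and was not called (adjusted p = 0.214 and 0.774). The dim probe 5 read 240, 234 and 189 units in knock-down cells and 222, 210 and 228 in decoy cells, against 142, 170 and 166 in control, where it was not above background, and rose at least 1.26-fold and at least 1.43-fold. Which transcripts each probe detects was not examined, so no direction is given for the gene.

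**Figure D3:**
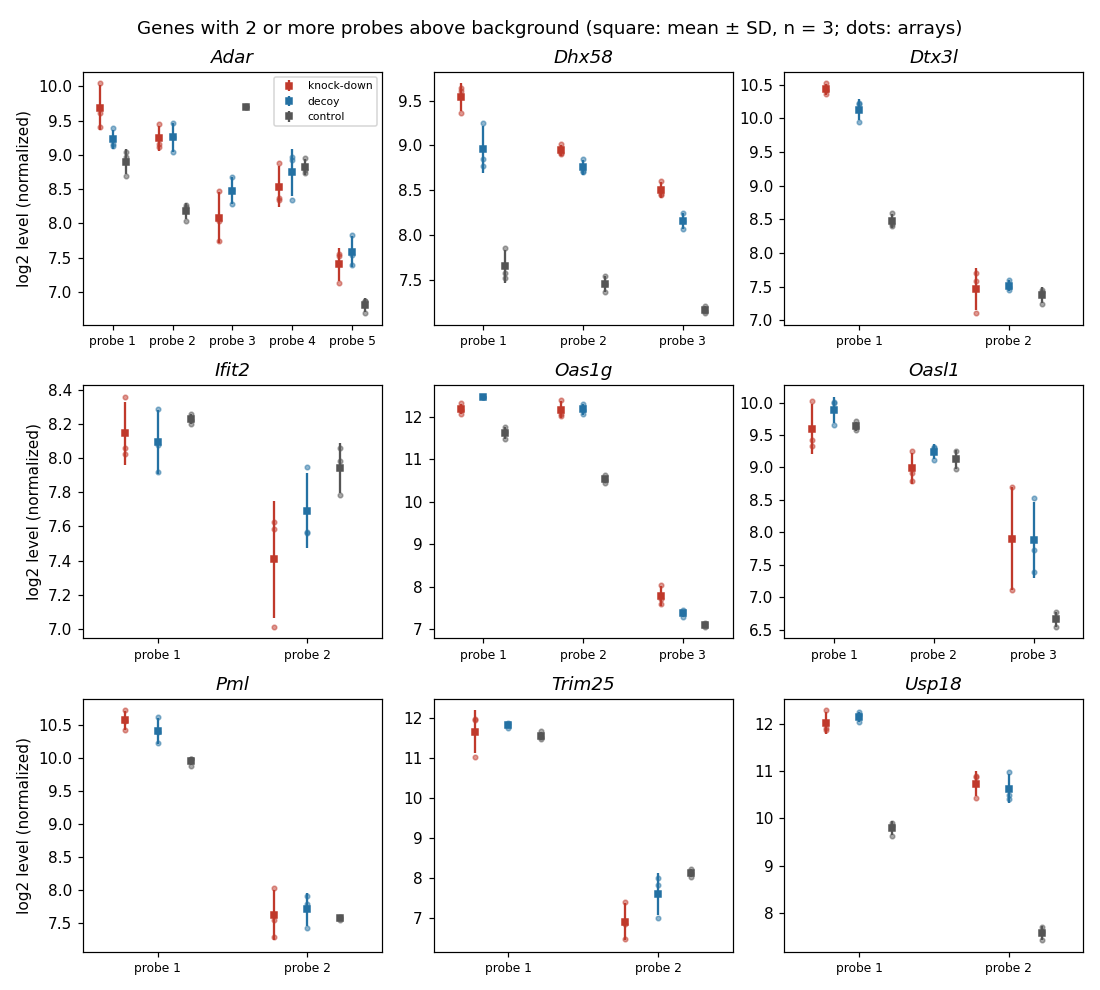
Normalized log2 level (y axis) of every probe above background on at least 3 arrays (x axis, in order of falling brightness) for the 9 effector genes with 2 or more such probes. Squares are means ± SD of 3 arrays and dots are arrays, with the knock-down left, the decoy in the middle and control at the right of each probe. Usp18 and Dhx58 sit above control on every probe shown, whereas probe 3 of Adar lies below control while probes 1, 2 and 5 lie above it.

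The OAS family and PKR act on double-stranded RNA, and of their 14 tested probes 9 rose in knock-down cells and 7 in decoy cells. These are 64.3% and 50%, against 22.6% and 16.1% of all probes. Both counts include probe 3 of Oasl1 and probe 1 of Oasl2, above background on no control array, so the shares are no support for a rise. OAS enzymes make short adenylate chains that switch on RNase L, and PKR halts translation. Eif2ak2, the gene of PKR, read 3763, 2874 and 2927 units in knock-down cells and 2872, 3039 and 2265 in decoy cells, against 1922, 1848 and 2069 in control. The groups did not overlap, and the normalized level was 4.00-fold higher in knock-down cells and 2.98-fold higher in decoy cells (adjusted p = 4.08e-07 and 8.02e-06). Under the common median described further on, its rise was smaller, 0.79 and 0.57 in log2. Oas2 read 987, 817 and 710 units in knock-down cells and 803, 671 and 669 in decoy cells, against 574, 520 and 591 in control. It rose by 1.79 and 1.32 in log2 (SE 0.159, adjusted p = 7.73e-07 and 2.69e-05). Its neighbour Oas3, on the probe with signal, read 454, 299 and 326 units in knock-down cells and 358, 323 and 299 in decoy cells, against 277, 295 and 204 in control. It rose by 1.25 and 0.98 in log2, and under the common median by 0.48 and 0.44, which was not called (adjusted p = 0.0922 and 0.128). Oas1g, which encodes an active OAS1 enzyme in the mouse, had 3 probes with signal that all pointed upward after normalization. Probe 1 read 5594, 3020 and 2431 units in knock-down cells and 5394, 5134 and 3961 in decoy cells, against 5210, 6040 and 4919 in control, so its raw signal did not rise. Its normalized rise was 0.56 and 0.84 in log2 (values below 0 under the common median described further on). Probe 2 read 4692, 3743 and 2188 units in knock-down cells and 4094, 4211 and 3497 in decoy cells, against 2497, 2821 and 2472 in control, and rose by 1.63 and 1.65. Probe 3 read 264, 236 and 230 units in knock-down cells and 206, 215 and 184 in decoy cells, against 206, 199 and 204 in control. It rose by 0.67 in knock-down cells and was not called in decoy cells (0.26, adjusted p = 0.17). The 1 probe of Oas1a was not called (0.09 and 0.28). Genes of the Oas1 cluster resemble each other closely, and how far their probes tell them apart was not examined.

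The OAS-like genes Oasl1 and Oasl2 are neighbours in GRCm38.p6, and their main probes differed. The brightest Oasl2 probe read 310, 267 and 239 units in knock-down cells and 437, 388 and 328 in decoy cells, against 187, 175 and 193 in control, where it was not above background. It rose at least 1.96-fold in knock-down cells and at least 2.96-fold in decoy cells (adjusted p = 2.27e-05 and 8.94e-07). Oasl1, in contrast, read 1124, 543 and 387 units in knock-down cells and 1002, 745 and 754 in decoy cells, against 1485, 1472 and 1405 in control, on probe 1. Probe 2 read 490, 411 and 375 units in knock-down cells and 640, 593 and 442 in decoy cells, against 1080, 943 and 1040 in control. After normalization neither probe was called in either comparison (differences of -0.14 to 0.25 in log2). The dim probe 3 of Oasl1 read 293, 368 and 188 units in knock-down cells and 206, 243 and 320 in decoy cells, against 151, 136 and 143 in control, where it was not above background. It rose at least 1.78-fold and at least 1.75-fold (adjusted p = 0.00533 and 0.00868).

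IFIT proteins bind the ends of foreign RNA and keep it from being translated. Of 5 tested probes 1 rose and 1 fell in knock-down cells, and 1 rose in decoy cells. Each is 20% of the 5, where 22.6% of all probes rose and 23.9% fell in knock-down cells, and 16.1% rose in decoy cells. Ifit3 read 527, 373 and 367 units in knock-down cells and 461, 464 and 465 in decoy cells, against 241, 237 and 255 in control, with no overlap. It was 3.07-fold and 3.14-fold higher (adjusted p = 1.67e-06 and 3.28e-06). Ifit2, its neighbour in GRCm38.p6, went the other way in raw signal. Probe 1 of Ifit2 read 320, 275 and 256 units in knock-down cells and 273, 325 and 256 in decoy cells, against 504, 545 and 515 in control, and its normalized level was not called (-0.08 and -0.14 in log2). Probe 2 read 247, 239 and 184 units in knock-down cells and 226, 226 and 241 in decoy cells, against 446, 440 and 364 in control. It was 1.45-fold lower in knock-down cells (adjusted p = 0.0236, and 0.0977 to 0.1 without control replicate 1 or knock-down replicate 3 and 0.0795 without control replicate 2) and was not called in decoy cells (adjusted p = 0.297). The probe of Ifit1 read 152, 191 and 168 units in knock-down cells and 167, 152 and 128 in decoy cells, against 175, 172 and 150 in control. It was not above background on any array, and neither was the other probe of Ifit3.

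Blocks on entry, replication and release of viruses had 9 tested probes, of which 5 rose in knock-down cells and 6 in decoy cells, and 2 fell in each. The shares that rose were 55.6% and 66.7%, against 22.6% and 16.1% of all probes. The share that fell was 22.2% in each, against 23.9% and 18.2%. Rsad2, or viperin, turns a nucleotide into one that ends viral RNA chains. It read 486, 435 and 362 units in knock-down cells and 602, 626 and 420 in decoy cells, against 205, 186 and 207 in control. The groups did not overlap, and Rsad2 was 3.75-fold and 4.36-fold higher (SE 0.152 in log2, adjusted p = 2.73e-07 and 2.84e-07). Cmpk2, the nucleotide kinase encoded next to it in GRCm38.p6, read 301, 240 and 223 units in knock-down cells and 286, 239 and 224 in decoy cells, against 249, 220 and 224 in control. Its raw signals overlapped, and its normalized rise was 0.58 and 0.57 in log2 (adjusted p = 0.00475 and 0.00773, and 0.0521 for the decoy without control replicate 2). Samd9l, a restriction factor of poxviruses, read 2425, 1490 and 1082 units in knock-down cells and 1963, 1850 and 1265 in decoy cells, against 1844, 2167 and 2092 in control, and rose 1.89-fold and 1.73-fold after normalization.

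Ifitm3, which blocks fusion of entering viruses, was the brightest effector by raw signal. It read 58690, 45738 and 24598 units in knock-down cells and 44335, 45061 and 44368 in decoy cells, against 63248, 62616 and 59252 in control. Of its control arrays 2 exceeded 60000 units, taken here as saturated. Its raw signal was lower on every modified array, whereas the quantile normalized level was called higher (adjusted p = 0.0133 and 0.027). Under the common median its differences were -0.52 and -0.37 in log2 and not called. With a capped control signal no fold is given, and no direction is drawn for Ifitm3. Bst2, or tetherin, which holds budding virus at the membrane, read 1063, 565 and 438 units in knock-down cells and 1322, 903 and 679 in decoy cells, against 1681, 2499 and 1945 in control. Its normalized differences of -0.45 and -0.08 in log2 were not called. Trim21, the antibody receptor of the cytosol, split by probe. Probe 1 read 317, 319 and 226 units in knock-down cells and 316, 315 and 293 in decoy cells, against 321, 315 and 334 in control, and rose by 0.49 and 0.61 (adjusted p = 0.0125 and 0.00485, and 0.061 for the knock-down without control replicate 2). Probe 2 read 141, 170 and 141 units in knock-down cells and 163, 148 and 131 in decoy cells, against 223, 185 and 219 in control. Probe 3 read 124, 176 and 132 units in knock-down cells and 133, 127 and 113 in decoy cells, against 191, 257 and 198 in control. Both were called lower in both modified groups, but each was above background on only 2 control arrays and on no other. For probe 2 the decoy call was lost without control replicate 1 or control replicate 3 (adjusted p = 0.0695 and 0.0602). Mx2, a GTPase, was called in decoy cells alone (0.53, adjusted p = 0.0159), from a probe above background on 3 of 9 arrays.

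Among the ADP-ribosyltransferases and their partner, 2 of 6 tested probes (33.3%) rose in each modified group, against 22.6% and 16.1% of all probes. The 2 were those of Parp14 and Dtx3l. They are neighbours in GRCm38.p6, with Parp9 on the other side of Dtx3l, and DTX3L works with PARP9 as a ubiquitin ligase. Parp14 read 1533, 933 and 793 units in knock-down cells and 1076, 1166 and 907 in decoy cells, against 655, 630 and 582 in control. It was 3.98-fold and 3.43-fold higher (SE 0.136 in log2, adjusted p = 6.84e-08 and 5.25e-07). Dtx3l on probe 1 read 1472, 956 and 780 units in knock-down cells and 958, 1092 and 870 in decoy cells, against 591, 709 and 599 in control, and was 3.89-fold and 3.14-fold higher. Neither gene's groups overlapped on these probes. Probe 2 of Dtx3l read 247, 245 and 188 units in knock-down cells and 230, 215 and 199 in decoy cells, against 221, 278 and 268 in control, and was not called (0.09 and 0.14). The brightest probe of Parp9 read 185, 202 and 190 units in knock-down cells and 165, 148 and 153 in decoy cells, against 181, 172 and 221 in control, above background on 1 array, and was not called. Parp12 was not called either (-0.31 and -0.06), with raw signals of 337 to 656 units in knock-down cells and 608 to 683 in decoy cells, against 1334 to 1409 in control.

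PML and SP100 build nuclear bodies that silence incoming viral DNA, and 2 of their 7 tested probes rose in each modified group. That is 28.6%, where 22.6% of all probes were called higher in knock-down cells and 16.1% in decoy cells. Probe 1 of Pml read 1636, 1223 and 735 units in knock-down cells and 1192, 1239 and 1145 in decoy cells, against 1799, 1784 and 1852 in control. Its raw signal was lower in both modified groups without overlap, yet it was 1.54-fold and 1.38-fold higher after normalization (adjusted p = 0.00284 and 0.0229). The decoy call was lost without control replicate 1, 2 or 3 or decoy replicate 3 (adjusted p = 0.061, 0.0897, 0.063 and 0.0822). Probe 2 of Pml read 316, 217 and 205 units in knock-down cells and 272, 251 and 194 in decoy cells, against 287, 313 and 312 in control, and was not called. Sp100 on its brightest probe read 269, 254 and 196 units in knock-down cells and 305, 303 and 240 in decoy cells, against 267, 296 and 278 in control. It was called higher in decoy cells (0.59, adjusted p = 0.00811) and not in knock-down cells (0.14, adjusted p = 0.466), and the decoy and the knock-down were not called different (adjusted p = 0.131).

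The remaining members had 8 tested probes, of which 2 rose in knock-down cells and 3 in decoy cells, and 1 fell in each. The shares that rose were 25% and 37.5%, against 22.6% and 16.1% of all probes, so that of knock-down cells is near the array's. The share that fell was 12.5% in each, against 23.9% and 18.2%. Ifi27l2a, a small interferon-inducible protein, was the 1 that fell. It read 3795, 1946 and 1530 units in knock-down cells and 4151, 2510 and 1568 in decoy cells, against 9474, 11712 and 11820 in control. Every modified array lay below every control array, and the normalized level was 2.20-fold lower in knock-down cells and 2.26-fold lower in decoy cells (limma adjusted p = 0.000376 and 0.000521). Ifi35, a regulator of innate signalling, read 1080, 657 and 659 units in knock-down cells and 797, 796 and 704 in decoy cells, against 762, 840 and 814 in control. It rose 2.32-fold and 1.96-fold after normalization, with overlapping raw signals. Lgals3bp, a secreted glycoprotein, read 5930, 5338 and 2891 units in knock-down cells and 6408, 6142 and 7920 in decoy cells, against 8056, 8336 and 8603 in control. It was called higher in decoy cells only (0.66, adjusted p = 0.0185), a call lost without any 1 control array or decoy replicate 3 (adjusted p = 0.05 to 0.0815). Slfn2 was not called in either comparison (-0.43 and 0.24). No probe of Rtp4 or Xaf1 was above background on any array. In all, 21 tested effector probes were above background on fewer than 3 arrays, 16 of them on none, and calls on such probes rest on signals near the limit.

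The way the arrays were scaled decided many of these calls. Under quantile normalization, the setting used so far, the median log2 difference of all probes tested was 0.012 in knock-down cells and 0.011 in decoy cells. With each array scaled to a common median it was -0.43 and -0.37. Under that scaling 16 of the 47 effector probes with signal were called higher and 15 lower in knock-down cells, against 2.42% and 74.2% of all such probes on the array. In the decoy 16 were higher and 11 lower, against 2.69% and 68.0%. Over all 68 probes the common median gave 20 higher and 17 lower in knock-down cells, against 8.29% and 48.6% of all probes, and 19 and 14 in decoy cells, against 7.01% and 43.5%. With no scaling 15 were higher and 20 lower in knock-down cells, against 4.71% and 52.7%, and 15 and 14 in decoy cells, against 3.71% and 48.1%. Over 6 scalings (quantile, cyclic loess, common median, none, the authors' values, and the median of the probes above background on all 9 arrays), 12 of the 47 were called higher under all 6 in knock-down cells, and 12 in decoy cells. Of the 14883 probes with such signal on the array 1.67% and 1.86% were. In both comparisons at once this held for 9 probes of 8 genes, namely both probes of Usp18, probe 2 of Dhx58, probe 3 of Oasl1, Eif2ak2, Ifit3, Rsad2, Parp14 and probe 1 of Dtx3l. Of these, Oasl1 probe 3 was above background on no control array and passed the filter only through the modified groups, so it supports nothing here. The same holds for probe 5 of Adar and probe 1 of Oasl2, and the 3 are among the 47 probes and among those called higher in each comparison. Folds given above are those after quantile normalization, and the other probes of the 9 rose less under the common median. There the log2 differences in knock-down and decoy cells were 1.01 and 1.36 for Usp18 probe 1 and 2.26 and 2.40 for its probe 2. They were 0.79 and 0.57 for Eif2ak2, 0.83 and 0.87 for Parp14, and 0.79 and 0.73 for Dtx3l probe 1. For Ifit3 they were 0.84 and 1.10, for Rsad2 1.24 and 1.71, and for Dhx58 probe 2 0.64 and 0.69. Isg15 was called under all 6 in decoy cells and under 5 in knock-down cells, where without scaling its rise was 0.60 in log2. Probe 3 of Adar and Ifi27l2a were called lower under all 6 in both comparisons, and probe 2 of Trim25 in knock-down cells, so 3 and 2 probes in all, against 17.8% and 15.0% of probes with signal. Of the calls higher after quantile normalization, 16 of 28 in knock-down cells and 17 of 29 in decoy cells were not made under all 6. Those of Oas3, Ddx58, Trim21 and Cmpk2 are among them in both. Some of these calls held under the common median and were lost without scaling, such as that of Ddx58 in knock-down cells (limma adjusted p = 0.0192 and 0.0638). Under the common median Samd9l, Ifi35, Ifitm3, Pml probe 1 and Oas1g probe 1 had values below 0 in both modified groups, and Pml probe 1 was called lower in knock-down cells (adjusted p = 0.0349).

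**Figure D4:**
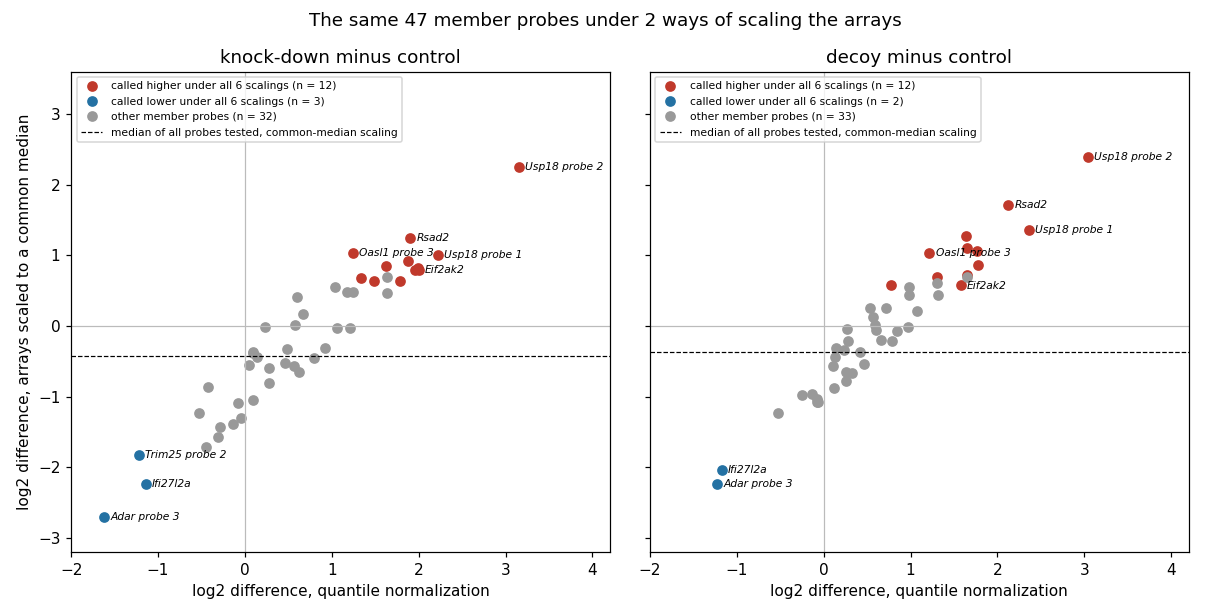
Log2 difference from control of the 47 effector probes above background on at least 3 arrays after quantile normalization (x axis) and with arrays scaled to a common median (y axis), for the knock-down (left) and the decoy (right). Red points were called higher and blue points lower under all 6 scalings. The dashed line is the median of all probes tested under the common median, -0.43 and -0.37, and most grey points lie near or below 0 on the y axis.

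Knock-down and decoy were then set against each other, a difference into which the control levels do not enter, although the control arrays share in the normalization and in the estimate of the spread. None of the 68 probes was called higher and 2 were called lower in knock-down cells, where 1.06% and 1.62% of all probes were, and differences ran from -0.75 to 0.58 in log2. At an unadjusted p below 0.05 limma gave 9 higher and 6 lower. The largest positive difference was that of Dhx58 probe 1, 0.58 (SE 0.163, adjusted p = 0.073), which was not called. Oasl2 was 1.51-fold lower in knock-down cells (adjusted p = 0.0262), with 310, 267 and 239 units in knock-down cells against 437, 388 and 328 in decoy cells. This call was lost without control replicate 1, 2 or 3, knock-down replicate 2, or decoy replicate 1 or 2 (adjusted p = 0.0547 to 0.111). The second was probe 2 of Zbp1, with 175, 195 and 162 units in knock-down cells against 210, 208 and 223 in decoy cells, 0.75 lower in log2 (adjusted p = 0.0133) and above background on 1 decoy array. Without knock-down replicate 1 there were 3 higher and 5 lower probes, and without decoy replicate 3 there was 1 higher.

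Genes upstream of the effectors were taken from a list of the interferon pathway, of which 39 genes with 72 probes were on the array and 49 probes of 30 genes were tested. In knock-down cells 14 probes were higher and 9 lower (28.6% and 18.4%), against 22.6% and 23.9% of all probes. In decoy cells 8 were higher and 9 lower (16.3% and 18.4%), close to the 16.1% and 18.2% of all probes. The medians were 0.053 and 0.13 in log2. Probes for the ligands were mostly at background: 16 genes had 30 probes, 14 were tested, and 3 rose and 3 fell in knock-down cells, 2 and 2 in decoy cells. These are 21.4% each way in knock-down cells and 14.3% each way in decoy cells, near the shares of all probes. The probe of Ifnb1, the first interferon made by infected cells, read 156, 178 and 148 units in knock-down cells and 123, 160 and 149 in decoy cells, against 116, 147 and 126 in control, and was not above background on any array. Of 7 tested receptor and kinase probes 3 fell in knock-down cells and 4 in decoy cells, where 23.9% and 18.2% of all probes did, and the others were not called. Ifnar2, a chain of the receptor, read 224, 246 and 211 units in knock-down cells and 305, 267 and 225 in decoy cells, against 789, 772 and 792 in control on its brightest probe. It fell at least 1.94-fold in knock-down cells and was 1.76-fold lower in decoy cells (limma adjusted p = 1.85e-05 and 0.000627). The kinase gene Tyk2 on its brightest probe read 831, 563 and 362 units in knock-down cells and 772, 617 and 461 in decoy cells, against 2415, 2313 and 2362 in control, and was 1.94-fold and 1.99-fold lower.

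Transcription factors of the pathway had 6 of 11 tested probes higher in knock-down cells and 3 in decoy cells, and the others were not called. The higher probes are 54.5% and 27.3% of the 11, where 22.6% and 16.1% of all probes were called higher. Irf7, which amplifies interferon production, read 756, 584 and 457 units in knock-down cells and 522, 543 and 625 in decoy cells, against 291, 481 and 410 in control. It was 3.24-fold and 2.68-fold higher (adjusted p = 5.49e-06 and 5.57e-05), with 1 knock-down array below the brightest control array. Without normalization the differences were 0.57 and 0.56 in log2 and were not called (adjusted p = 0.0643 and 0.0765). Irf9, the DNA-binding part of ISGF3, read 1243, 788 and 542 units in knock-down cells and 965, 1006 and 914 in decoy cells, against 996, 1160 and 1059 in control on probe 1. It was 1.82-fold and 1.90-fold higher after normalization, with overlapping raw signals. Among the inhibitors, Pias1 rose 2.06-fold and 1.58-fold, and Socs3 rose 1.58-fold in knock-down cells and was not called in decoy cells (adjusted p = 0.263). Ptpn2 was 1.61-fold higher in knock-down cells (adjusted p = 0.00113), was not called in decoy cells (adjusted p = 0.658), and was 1.51-fold higher in knock-down cells than in decoy cells (adjusted p = 0.0346). That call was lost without any 1 of the other arrays except knock-down replicate 1 (adjusted p = 0.0505 to 0.113). The adaptor gene Myd88 rose by 0.59 and 0.58 in log2 on probe 1, whereas its other probe fell 2.68-fold in knock-down cells and 2.31-fold in decoy cells. Under the common median the rises of Irf9 probe 1, Pias1, Ptpn2, Myd88 and Socs3 had values below 0.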

How the data were processed

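RNA of 9 RAW264.7 samples (3 knock-down, 3 decoy, 3 control) was measured on a mouse Illumina bead array, 1 array a sample. The deposited raw intensities are whole numbers per probe, with no sign of background subtraction or scaling in their values, as deposited by the authors. The authors also deposited a table of log2 values of the same arrays. It was made in R 2.9.1 per the submitters' processing notes. The sources used here do not give its normalization. That table served as an alternative only.

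Raw intensities were corrected by normexp with an offset of 50, turned to log2 and quantile normalized. A probe was kept if it exceeded its array's median on at least 3 arrays, which left 27062 of 45281. The limma test (limma 3.58.1, R 4.3.3) was fitted per probe over all 3 groups, with Benjamini-Hochberg adjustment over the kept probes, and it was tested on simulated data. The background limit and the saturation level of 60000 units were chosen after the data were seen. Where a group was on no array above background, the fold is a lower bound against the lowest signal above background, or the probe's own signal if higher. Genes were named from the platform annotation, in which 34885 probes had 1 symbol, 18 several and 10378 none.

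Members and lists were chosen with earlier results of these data known. Values on every array follow a rule that took up to 3 genes of each of 8 roles by the limma F test, all probes above background of genes with several, genes called in opposite directions, genes called between knock-down and decoy, and 8 pathway genes. Bst2, Ifitm3, Mx2, Oas1a, Oas3, Parp12, Slfn2, Ifih1, Ifnb1 and the second probes of Irf9 and Myd88 are given beside it to account for members, and were chosen after their values were seen. Replicate numbers were not taken to pair the samples. Precision is limited by 3 arrays a group. Alternatives were other background corrections, scalings, filters, variance models and array sets. One scaling, to the median of probes above background on all arrays, was added after seeing the data.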

Additional observations from a re-analysis of the deposited data

Results flagged for a closer look

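Differences between the knock-down and the decoy were called for 2 effector probes, which is why they are listed. Oasl2 on its brightest probe was lower in the knock-down than in the decoy by 0.60 in log2 (log2 difference -0.60, SE 0.133, limma adjusted p = 0.0262), with 239 to 310 units in the knock-down against 328 to 437 in the decoy. The call was lost with array weights (adjusted p = 0.0733) and in a fit of only these 2 groups (adjusted p = 0.137). Probe 2 of Zbp1 had a log2 difference of -0.75 (limma adjusted p = 0.0133), with 162 to 195 units in the knock-down against 208 to 223 in the decoy. That probe was above background on 1 of 9 arrays, and its call was lost in a fit of only these 2 groups (adjusted p = 0.0743).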

How the results depend on the processing

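Scaling moved the counts most. Against 32 higher and 6 lower effector probes in knock-down cells and 32 and 4 in decoy cells, a common median gave 20 and 17 in knock-down cells and 19 and 14 in decoy cells. No normalization gave 15 and 20, and 15 and 14. Scaling to the median of probes above background on all arrays, added after seeing the data, gave 53 and 3, and 52 and 2. Under it the median log2 difference of all probes tested was 0.835 in knock-down cells and 0.629 in decoy cells. The share of all probes called under it was not counted, so these counts say nothing particular to the effectors. Lower probes in decoy cells numbered 2 when the test was limited to probes with signal on 3 or more arrays, and 2 with a filter on the mean. Between knock-down and decoy, against 0 higher and 2 lower, no background correction and the authors' log2 values each gave 1 higher. Lower probes there numbered 0 under the common median, without normalization, under the added scaling and with only the 2 groups, and 1 with array weights or with only probes above background. Of the 49 pathway probes tested, 3 were higher and 25 lower in knock-down cells under the common median. The counts were 2 and 26 in decoy cells, and 0 and 0 between knock-down and decoy. Of all probes tested, 8.29% were higher and 48.6% lower under that scaling in knock-down cells, and 7.01% and 43.5% in decoy cells. With 1 value a gene as the mean over probes, 4 genes were lower in knock-down cells, against 1 on the brightest probe, and 0 between knock-down and decoy, against 1.

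Leaving out 1 array gave 29 to 32 higher and 4 to 8 lower in knock-down cells, 26 to 32 and 2 to 6 in decoy cells, and 0 to 3 and 1 to 5 between knock-down and decoy, where the 3 and the 5 came without knock-down replicate 1. Lower probes in decoy cells were 2 without control replicate 1 or 3. Between knock-down and decoy 1 probe was lower without any 1 control array, knock-down replicate 2, or decoy replicate 1 or 2.

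Same-numbered samples of knock-down and decoy correlated at 0.283, -0.222 and -0.112 in their deviations, so the numbers were not taken as pairs. With the replicate number as a block, 31 effector probes were higher in knock-down cells and 32 in decoy cells, the pathway count of lower probes between knock-down and decoy was 0, and the Nfat5 call between them was lost (adjusted p = 0.0654). That call, at adjusted p = 0.0418, was lost too with array weights (0.137), only the 2 groups (0.189), no filter on dim probes (0.0509), the common median (0.282), no normalization (0.432) and the added scaling (0.321).

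Single probes changed sign under 3 scalings, and the cause was not tested. Under the common median the log2 differences from control in knock-down cells were -0.315 for Samd9l probe 1, -0.567 for Oas1g probe 1, -0.811 for Lgals3bp probe 1, -1.05 for Trim25 probe 1, -0.0298 for Ifi35 probe 1, -0.646 for Pml probe 1, -0.459 for Adar probe 1, -0.0291 for Adar probe 2, -0.324 for Trim21 probe 1, -0.396 for Irf9 probe 1, -0.211 for Pias1 probe 1, -0.24 for Ptpn2 probe 1, -0.459 for Myd88 probe 1 and -0.572 for Socs3 probe 1. In the decoy they were -0.21 for Samd9l probe 1, -0.0737 for Oas1g probe 1, -0.204 for Lgals3bp probe 1, -0.00772 for Ifi35 probe 1, -0.879 for Oasl1 probe 2, -0.541 for Pml probe 1, -0.663 for Adar probe 1, -0.0573 for Trim21 probe 1, -0.0845 for Irf9 probe 1, -0.347 for Pias1 probe 1, -0.587 for Ptpn2 probe 1, -0.29 for Myd88 probe 1 and -0.767 for Socs3 probe 1. Without normalization they were, in knock-down cells, -0.533 for Sp100 probe 1, -0.407 for Samd9l probe 1, -0.0756 for Cmpk2 probe 1, -0.659 for Oas1g probe 1, -0.649 for Pml probe 2, -0.903 for Lgals3bp probe 1, -1.14 for Trim25 probe 1, -0.122 for Ifi35 probe 1, -0.738 for Pml probe 1, -0.551 for Adar probe 1, -0.121 for Adar probe 2, -0.416 for Trim21 probe 1, -0.488 for Irf9 probe 1, -0.303 for Pias1 probe 1, -0.332 for Ptpn2 probe 1, -0.551 for Myd88 probe 1 and -0.664 for Socs3 probe 1. In the decoy they were -0.0794 for Sp100 probe 1, -0.307 for Samd9l probe 1, -0.171 for Oas1g probe 1, -0.301 for Lgals3bp probe 1, -0.105 for Ifi35 probe 1, -0.977 for Oasl1 probe 2, -0.638 for Pml probe 1, -0.76 for Adar probe 1, -0.155 for Trim21 probe 1, -0.182 for Irf9 probe 1, -0.445 for Pias1 probe 1, -0.684 for Ptpn2 probe 1, -0.388 for Myd88 probe 1 and -0.864 for Socs3 probe 1. Under the added scaling they were, in knock-down cells, 0.0889 for Trim21 probe 3, 1.02 for Ifit1 probe 1, 0.0349 for Ifit2 probe 2 and 0.284 for Trim21 probe 2, and in decoy cells 0.683 for Ifit1 probe 1 and 0.24 for Trim21 probe 2. Beyond these, the sign turned for Ifitm3, to -0.52 and -0.37 under the common median and -0.61 and -0.47 without normalization, and for Zbp1 probe 1, to -0.60 and -0.56 and to -0.69 and -0.66, each of the Zbp1 values being called lower. Signs also turned for probes called under neither scaling, which are not all listed. Among them are Oas1a, at -0.37 and -0.21 under the common median, and Dtx3l probe 2, at -0.39 and -0.32. Leaving out arrays in turn turned no sign of a called probe, kept 1373 values on their side of the threshold, ended 38 calls and added 11. Signal near background limits all values of the 21 dim probes.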
